A study of Mus musculus with 54 samples.

Results

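Glycolysis and hypoxia-response genes were followed across all 9 groups of a microarray study in Ba/F3-gp130 cells. The set held 36 listed mouse genes, 33 of which had a usable probe set on the array, out of 19920 genes measured in all. A gene was read from a probe set annotated with exactly 1 symbol, and where it had several, from the one with the highest mean over the 27 arrays. The list was drawn up by pathway and not by a cutoff on a measured value, but with earlier results of these data known. Gpi1 and Eno1 were on no probe set of the annotation, and all 25 probe sets that list Gapdh also list other symbols, so these 3 genes were left out of every count below.

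Glycolysis splits glucose into pyruvate: hexokinases trap glucose as its phosphate, phosphofructokinases commit it to breakdown, and lactate dehydrogenase turns pyruvate into lactate. Hypoxia-inducible factor (HIF) couples this pathway to oxygen. Prolyl hydroxylases (Egln1, Egln3) mark the Hif1a protein when oxygen is present, Vhl then directs it to degradation, and at low oxygen Hif1a escapes and raises many glycolytic genes through a short promoter element, the hypoxia response element. Cytokine receptors such as gp130 are known to raise some of the same genes through STAT3. Since Hif1a is controlled mainly as a protein, an array of RNA does not show its activity directly.

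Ba/F3 cells are mouse pro-B cells kept as a line, and the form used here, made to carry gp130, needs Hyper-IL-6, in which interleukin-6 is joined to its soluble receptor, to grow. Per the labels, 4 lines were compared: the untransfected parental line and 3 lines that carry the Cargo Internalization Receptor constructs CIR-1, CIR-2 and CIR-3. All lines were grown with Hyper-IL-6 at 10 ng/ml, then washed 4 times and held in serum-free medium for 3 h. Cells of each line were either left unstimulated or given GFP-PFC, a perfluorocarbon emulsion, at 50 µl per ml for 1 h, and parental cells alone were also given 100 ng/ml Hyper-IL-6 for 1 h. Each of the 9 groups had 3 arrays. The labels do not say whether the 3 arrays came from separate cultures, so p-values measure only the spread between these arrays, nor whether a CIR line is 1 clone or a pool. There was no arm given a liquid without emulsion or cytokine, so handling cannot be told apart from either stimulus. The study's stated aim was to learn how far the constructs influence the cells.

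Values are deposited signals, taken as log2, and every difference is on that scale (a difference of 1 is 2-fold) with its standard error (SE) from 1 limma fit over the 27 arrays. A gene is called where its p-value, adjusted over all 19920 genes, is under 0.05. Array medians ran from 7.52 to 7.65, and all 33 members lay above the median lower quartile of the arrays (6.28). The number of arrays limits the precision, and signals of different genes were not set against each other. In these bulk samples, fewer cells expressing a gene and less RNA per cell cannot be told apart. Of 15 measured pro-B markers, Cd79a (group means 9.52 to 10.1), Cd79b (9.91 to 10.2) and Ptprc (12.2 to 12.4) were well above that quartile, while Ebf1, Rag2, Dntt, Cd24a and Il7r lay below it in all 9 groups.

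The promoters of 31 of the 33 members were found in RefSeq (build GRCm38.p6), and not those of Bnip3l and Bhlhe40. Both strands of the 250 bases before each start were searched for the core of the hypoxia response element, ACGTG or GCGTG, and for the palindrome TTCNNNGAA that STAT proteins bind. At least 1 core was present for 28 of the 31 genes, or in 78.3% of the 46 member windows (some genes have several starts), against 38.6% of all 32851 windows in the table. The cores contain a CG step, and member windows held more of these (median 12 against 6 in all windows), so the shares are not matched for base composition. The STAT-type palindrome was in 6.52% of member windows (those of Aldoc, Kdm3a and Pfkm) and 7.02% of all windows. The promoters of 6 members on which the results turn follow, as the gene reads from 5′ to 3′ and ending 1 base before the start, with the matched letters in capitals. A match on the opposite strand appears as CACGT or CACGC.

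Hk2 (chr6:82774455-82774704, minus strand): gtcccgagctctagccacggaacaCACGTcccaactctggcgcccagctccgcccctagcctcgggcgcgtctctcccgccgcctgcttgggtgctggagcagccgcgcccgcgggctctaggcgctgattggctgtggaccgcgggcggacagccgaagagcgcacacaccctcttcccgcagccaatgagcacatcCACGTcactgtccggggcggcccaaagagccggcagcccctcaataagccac
Vegfa (chr17:46032378-46032627, minus strand): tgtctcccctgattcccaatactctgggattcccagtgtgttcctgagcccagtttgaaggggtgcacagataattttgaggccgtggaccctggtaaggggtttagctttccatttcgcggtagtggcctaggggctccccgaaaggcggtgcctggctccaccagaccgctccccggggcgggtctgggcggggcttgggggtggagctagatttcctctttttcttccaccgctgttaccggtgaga
Pfkp (chr13:6648772-6649021, minus strand): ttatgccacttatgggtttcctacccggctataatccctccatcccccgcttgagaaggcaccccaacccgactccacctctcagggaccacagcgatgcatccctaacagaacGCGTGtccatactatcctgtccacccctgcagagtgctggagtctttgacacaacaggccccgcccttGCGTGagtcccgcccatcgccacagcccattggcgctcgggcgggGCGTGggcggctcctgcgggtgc
Pfkl (chr10:78009808-78010057, minus strand): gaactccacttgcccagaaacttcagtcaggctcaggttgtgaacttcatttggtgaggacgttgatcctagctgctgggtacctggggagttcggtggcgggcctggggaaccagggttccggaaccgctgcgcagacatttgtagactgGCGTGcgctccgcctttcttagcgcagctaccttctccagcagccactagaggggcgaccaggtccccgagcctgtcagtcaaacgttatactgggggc
Pfkfb4 (chr9:108991652-108991901, plus strand): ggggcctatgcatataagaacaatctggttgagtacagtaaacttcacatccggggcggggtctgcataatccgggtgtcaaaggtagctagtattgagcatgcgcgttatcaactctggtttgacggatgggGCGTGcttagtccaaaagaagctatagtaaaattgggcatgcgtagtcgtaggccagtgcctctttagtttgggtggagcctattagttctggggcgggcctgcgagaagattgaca
Ankrd37 (chr8:45999851-46000100, minus strand): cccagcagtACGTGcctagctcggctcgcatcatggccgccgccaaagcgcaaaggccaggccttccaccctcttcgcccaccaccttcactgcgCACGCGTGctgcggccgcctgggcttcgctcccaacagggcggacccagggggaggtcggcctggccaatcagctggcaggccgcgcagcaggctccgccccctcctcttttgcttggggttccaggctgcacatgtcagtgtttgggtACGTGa

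Hk2 has 2 such cores, Pfkp has 3, Pfkl and Pfkfb4 have 1 each and Ankrd37 has 4, of which 2 overlap in the run CACGCGTG. The Vegfa window shown, the more upstream of its 2 windows, has none, which says only that these letters are not in these 250 bases. The other Vegfa window (chr17:46025164-46025413) has 2 cores, and Vegfa counts among the 28 genes through it alone. It lies downstream of the first start, inside the gene, so its cores may be part of the transcribed sequence and not of a promoter. A match describes the letters and is no evidence of binding.

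**Figure D1:**
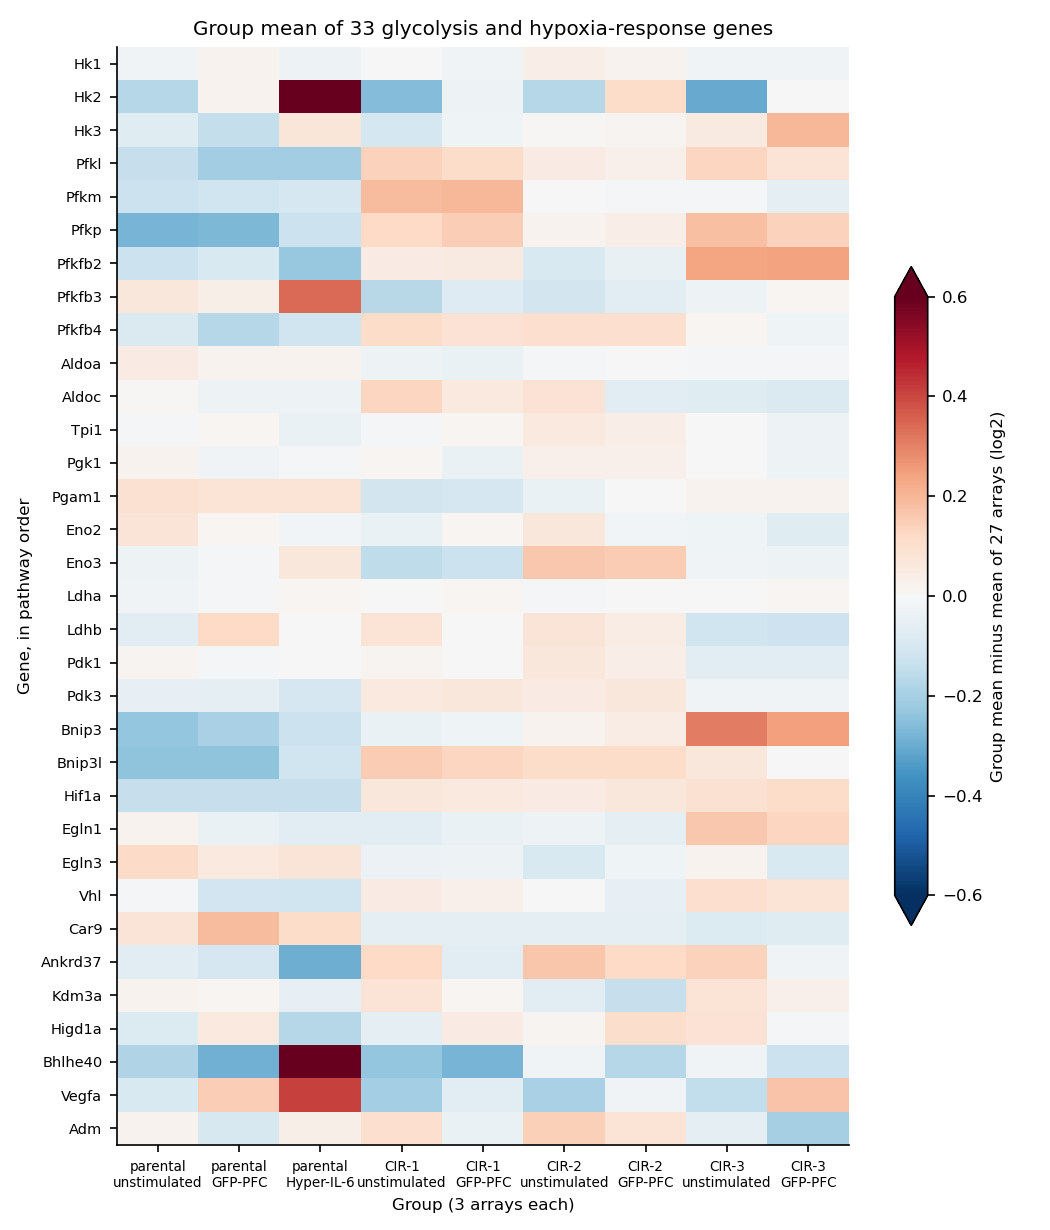
Heat map of the group mean minus the mean of all 27 arrays (log2, colour limits at -0.6 and 0.6) for the 33 measured genes in pathway order, with 9 groups of 3 arrays in columns. Hk2, Pfkfb3, Bhlhe40 and Vegfa stand out in the Hyper-IL-6 column, Pfkp and Bnip3l separate the parental from the CIR columns, and the rows of Ldha, Pgk1 and Aldoa are nearly blank.

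Several core enzymes of glycolysis varied little between groups. The 9 group means of Ldha, which makes lactate, lay within 0.039 of each other (14.02 to 14.05). The corresponding ranges were 0.067 for Pgk1, an ATP-forming kinase of lower glycolysis, 0.089 for Aldoa, the main aldolase, and 0.10 for Tpi1, which interconverts the triose phosphates. Ldha values are close to the highest in the table (14.86), and whether such bright probe sets understate a change was not tested. Hk1 also varied by only 0.074, but its probe set tracked 16 probe sets annotated with both the ribosomal gene Rpl17 and Hk1 (r = 0.92 over the 27 arrays, which share these samples), while a dimmer Hk1 probe set did not (r = -0.29). The Hk1 row therefore cannot be told apart from Rpl17, and on the dimmer probe set CIR-1 and parental cells differed by 0.13 (adjusted p = 0.218). At the other end stood Bhlhe40 (range 1.64) and Hk2 (1.11), followed by Vegfa (0.62), Bnip3 (0.54), Pfkfb3 (0.51), Pfkfb2 (0.47), Pfkp (0.47) and Ankrd37 (0.46).

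Hyper-IL-6 raised 3 of the 33 genes in parental cells: Hk2, the inducible hexokinase, Bhlhe40, a circadian and hypoxia-inducible transcriptional repressor, and Vegfa, the angiogenic growth factor. None was called lower. In all, 0.773% of genes were called in this comparison and 0.733% were called higher. Hk2 read 10.11, 10.34 and 10.42 on the unstimulated arrays and 10.96, 11.36 and 11.51 after Hyper-IL-6. The difference was 0.99 (SE 0.16, 1.98-fold, adjusted p = 0.000854).

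Bhlhe40 read 10.79, 10.86 and 11.70 unstimulated and 12.21, 12.85 and 12.84 after Hyper-IL-6. An unstimulated array was far above the rest of its group, and the difference of 1.52 had a wide error (SE 0.36, 2.87-fold, adjusted p = 0.0402). Vegfa read 9.80, 9.69 and 9.76 unstimulated and 10.07, 10.37 and 10.32 with the cytokine (difference 0.51, SE 0.11, 1.42-fold, adjusted p = 0.0194).

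**Figure D2:**
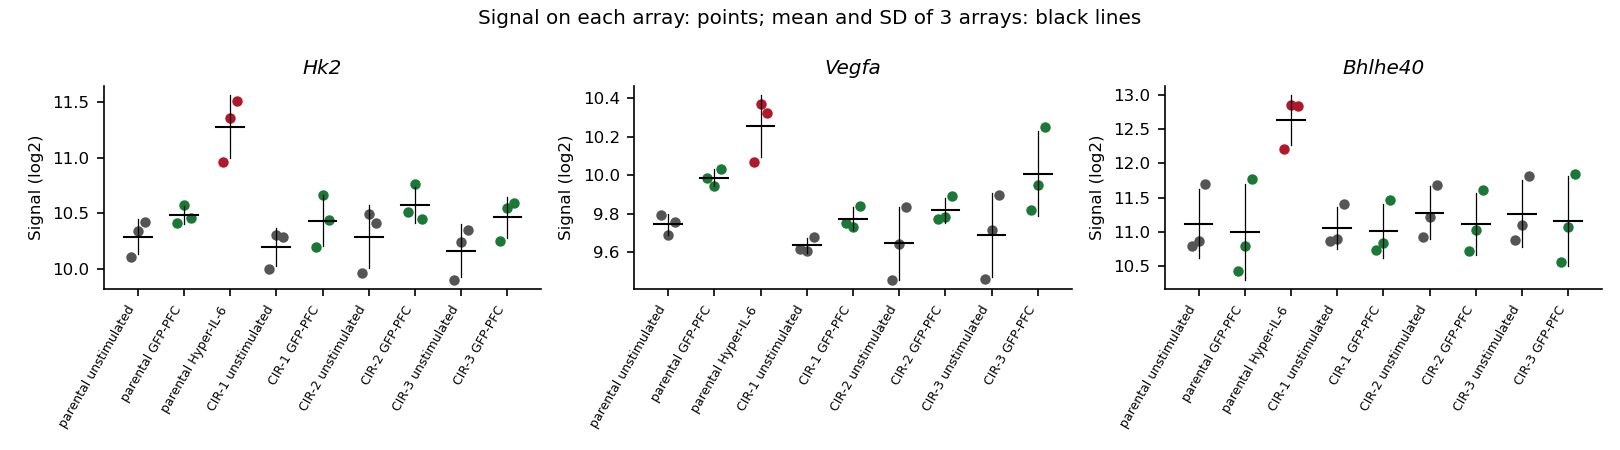
Log2 signal of Hk2, Vegfa and Bhlhe40 on each array (points, 3 per group; grey unstimulated, green GFP-PFC, red Hyper-IL-6), with the mean and SD of each group in black. All Hyper-IL-6 arrays of Hk2 (10.96 to 11.51) and of Bhlhe40 (12.21 to 12.85) lie above every other array, while the highest Vegfa array with GFP-PFC in CIR-3 (10.25) lies among the Hyper-IL-6 arrays.

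No other member was called. Pfkfb3, the kinase that makes the strongest activator of phosphofructokinase, read 9.74, 9.63 and 9.78 unstimulated and 9.93, 9.98 and 10.06 with Hyper-IL-6. The difference of 0.27 (SE 0.11) did not pass (adjusted p = 0.525). Pfkp, the platelet-type phosphofructokinase, likewise lay higher by 0.15 (SE 0.058, adjusted p = 0.492). Over all 33 members the median difference was -0.010, against -0.013 over all genes. The 4 HIF control genes (Hif1a, Egln1, Egln3, Vhl), the 6 upper glycolytic enzymes measured other than the hexokinases (Pfkl, Pfkm, Pfkp, Aldoa, Aldoc, Tpi1), the 4 lower ones (Pgk1, Pgam1, Eno2, Eno3), both lactate dehydrogenases and both pyruvate dehydrogenase kinases had 0 calls in limma, with 1 of these genes (Pfkp) at an unadjusted p under 0.05.

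Calls other than that of Hk2 were lost when single arrays were left out, with differences of similar size. Vegfa was no longer called without unstimulated array 3 or 5, or without Hyper-IL-6 array 4 or 6 (differences 0.45 to 0.51, adjusted p from 0.0618 to 0.209). Bhlhe40 was not called without unstimulated array 1 or 3, or Hyper-IL-6 array 4 or 6 (differences 1.36 to 1.42, adjusted p from 0.119 to 0.299). When only the 6 arrays compared were fitted, none of the 3 was called (adjusted p = 0.0683, 0.109 and 0.172 for Hk2, Bhlhe40 and Vegfa). Vegfa also lost its call in limma on exon-level values (0.40, adjusted p = 0.105), and Bhlhe40 after quantile normalization (1.49, adjusted p = 0.0582).

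Set against GFP-PFC in place of no stimulation, Hyper-IL-6 raised 2 members, Hk2 and Bhlhe40, where 0.507% of all genes were called and 0.492% called higher. This comparison shares the Hyper-IL-6 arrays with the one above. Hk2 read 10.41, 10.57 and 10.46 with GFP-PFC (difference 0.79, SE 0.16, adjusted p = 0.0129). Bhlhe40 read 10.42, 10.79 and 11.78 with GFP-PFC (difference 1.64, SE 0.36, adjusted p = 0.0296). Vegfa, at 9.98, 9.94 and 10.03 with GFP-PFC, differed by 0.27 (SE 0.11, adjusted p = 0.733). Without GFP-PFC array 2, or Hyper-IL-6 array 4 or 6, neither gene was called.

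GFP-PFC itself called none of the 33 genes in limma, either as the mean over the 4 lines (0.221% of all genes called, 3 members at an unadjusted p under 0.05) or in any single line (0% of all genes called, with 1, 0, 0 and 1 members at an unadjusted p under 0.05 in parental, CIR-1, CIR-2 and CIR-3). Perfluorocarbons are known to dissolve oxygen. Of the oxygen-responsive genes, Car9, the cell-surface carbonic anhydrase, differed by 0.029 (95% interval -0.058 to 0.12) and Bhlhe40 by -0.11 (-0.48 to 0.26). Adm, the vasodilator peptide adrenomedullin, differed by -0.12 (-0.22 to -0.01, adjusted p = 0.702). Car9 and Adm were dim, with mean signals of 7.41 and 6.91. Other HIF targets lay higher: Vegfa and Hk2 without a call (next paragraph) and, outside the members, Plin2 (0.31, adjusted p = 0.0211 in limma). A part of oxygen was not tested. The median difference of the members was -0.00415 and that of all genes -0.0106. The next smallest p-values within single lines belonged to Ldhb in parental cells (0.18, SE 0.093), Adm in CIR-1 (-0.14, SE 0.10), Aldoc in CIR-2 (-0.15, SE 0.12) and Hk3 in CIR-3 (0.15, SE 0.082).

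Hk2 and Vegfa, the members with the smallest p-values over the 4 lines, lay higher with GFP-PFC in every pair of consecutive numbers. The array numbers pair consecutive unstimulated and GFP-PFC arrays of a line (1 with 2, 3 with 4, 5 with 6), which gave 12 pairs. Hk2 was higher with GFP-PFC in 12 of 12 pairs, by 0.037 to 0.54, and Vegfa in 12 of 12 pairs, by 0.057 to 0.36. The labels do not say that these arrays were matched. Arrays of the same number also correlated across lines, so the 12 pairs may not be independent. The share of all genes higher in 12 of 12 pairs was not computed, so these counts are a description. As the mean over lines the differences were 0.25 for Hk2 (SE 0.078, 1.19-fold, adjusted p = 0.343) and 0.22 for Vegfa (SE 0.054, 1.16-fold, adjusted p = 0.121). With the number pair as a block both were called (adjusted p = 0.00359 and 0.00787, where 0.758% of all genes were called). Both also passed with array weights (0.0490 and 0.0148) and without the arrays numbered 1 and 2 (0.0356 and 0.0381), and Vegfa without CIR-3 unstimulated array 5 (0.0492). With array weights and without the arrays numbered 1 and 2, far more of all genes were called than in the main fit. The shares are given in the closing section, and these passes may only follow that rise.

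Line by line, the Vegfa difference was 0.24 (parental), 0.14 (CIR-1), 0.17 (CIR-2) and 0.32 (CIR-3), all at an SE of 0.11. That of Hk2 was 0.19, 0.23, 0.28 and 0.30 in the same order (SE 0.16 each). Both genes thus lay higher in parental cells too, which carry no CIR construct. A test of whether the response differed among lines called 0 members in limma, none of them at an unadjusted p under 0.05, and the intervals were wide: the CIR-3 response of Vegfa minus the parental one was 0.077, with a 95% interval from -0.24 to 0.39. In that test the members with the smallest p-values were Ldhb, Hk3 and Egln3, each with an adjusted p of 1.

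Between lines, the members called in each CIR line against parental were Pfkp and Pfkl, subunits of phosphofructokinase, and Bnip3l. With both conditions averaged (6 arrays against 6), CIR-1 had 5 members higher than parental and none lower, where 4.91% of all genes were called and 2.95% called higher. CIR-2 had 4 higher and none lower (3.80% of all genes called, 2.42% higher), and CIR-3 had 6 higher and 1 lower (4.20% called, 3.10% higher and 1.10% lower). The 3 comparisons share the 6 parental arrays. The CIR-3 count fell to 4 without parental unstimulated array 5 or CIR-3 unstimulated array 1, and to 3 without CIR-3 GFP-PFC array 2. Of the 33 members, 9 were called in at least 1 line. The share of all genes called in at least 1 line is not given here, so that count is only a description. Pfkp, Pfkl and Bnip3l were the 3 members called higher in each line. Over all genes, 0.914% were called higher in each line.

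Pfkp ranged from 12.58 to 12.64 (median 12.61) on the parental arrays and from 12.85 to 13.12 (median 13.00) on the 18 CIR arrays, with no overlap. Among all genes, 0.688% had every CIR array above every one of these parental arrays. It differed by 0.41 in CIR-1 (SE 0.041, 1.33-fold, adjusted p = 2.65e-07). CIR-2 showed a difference of 0.30 (1.23-fold, adjusted p = 2.98e-05) and CIR-3 one of 0.44 (1.36-fold, adjusted p = 8.97e-08). Pfkp was also called in each line within each condition, where 1.73%, 1.20% and 1.49% of genes were called on unstimulated arrays (CIR-1, CIR-2, CIR-3) and 1.64%, 1.17% and 1.24% on GFP-PFC arrays. Parental arrays given Hyper-IL-6 read 12.63, 12.80 and 12.83, below all 18 CIR arrays.

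Pfkl, the liver-type subunit, had a parental median of 10.90 (10.72 to 11.03). In CIR-1 it ran from 11.09 to 11.24 (difference 0.30, SE 0.060, adjusted p = 0.00267), in CIR-2 from 11.07 to 11.13 (0.22, adjusted p = 0.0450) and in CIR-3 from 10.97 to 11.33 (0.28, adjusted p = 0.00579). The CIR-3 arrays overlapped the parental ones. The CIR-2 call was lost in 15 of 25 alternatives. Pfkm, the muscle-type subunit, was called in CIR-1 alone, where it ran from 10.44 to 10.89 against 10.23 to 10.41 in parental cells (difference 0.32, SE 0.073, adjusted p = 0.00666). CIR-1 thus had all 3 catalytic subunits higher. The direct test of Pfkm against CIR-1 did not pass for CIR-2 (-0.20, SE 0.073, adjusted p = 0.308) or CIR-3 (-0.23, SE 0.073, adjusted p = 0.1004), and passed for both with the number block (adjusted p = 0.0262 and 0.00482).

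Of the 3 bifunctional enzymes that set the level of the allosteric activator of this step, Pfkfb4 was called in CIR-1 and CIR-2 and Pfkfb2 in CIR-3. Pfkfb4 ran from 7.99 to 8.28 in parental cells, from 8.32 to 8.45 in CIR-1 and from 8.33 to 8.41 in CIR-2 (differences 0.23 and 0.23, SE 0.048, adjusted p = 0.00357 and 0.00448). In CIR-3, at 8.18 to 8.42, it overlapped the parental arrays and was not called (0.12, adjusted p = 0.179). Pfkfb2 was called in CIR-3 (9.49 to 9.80 against 8.996 to 9.588, difference 0.35, SE 0.093, adjusted p = 0.0295) and not in CIR-1 (0.16) or CIR-2 (0.042). That call was lost in 10 of 25 alternatives (differences 0.28 to 0.37, adjusted p up to 0.427), among them 7 that left out a single parental or CIR-3 array. Tested directly, CIR-3 and CIR-2 differed by 0.31 for Pfkfb2 (adjusted p = 0.0900, or 0.00258 with the number block), and by -0.11 for Pfkfb4 (adjusted p = 0.318). Pfkfb3 was called in none, with differences of -0.17, -0.14 and -0.062 in CIR-1, CIR-2 and CIR-3.

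**Figure D3:**
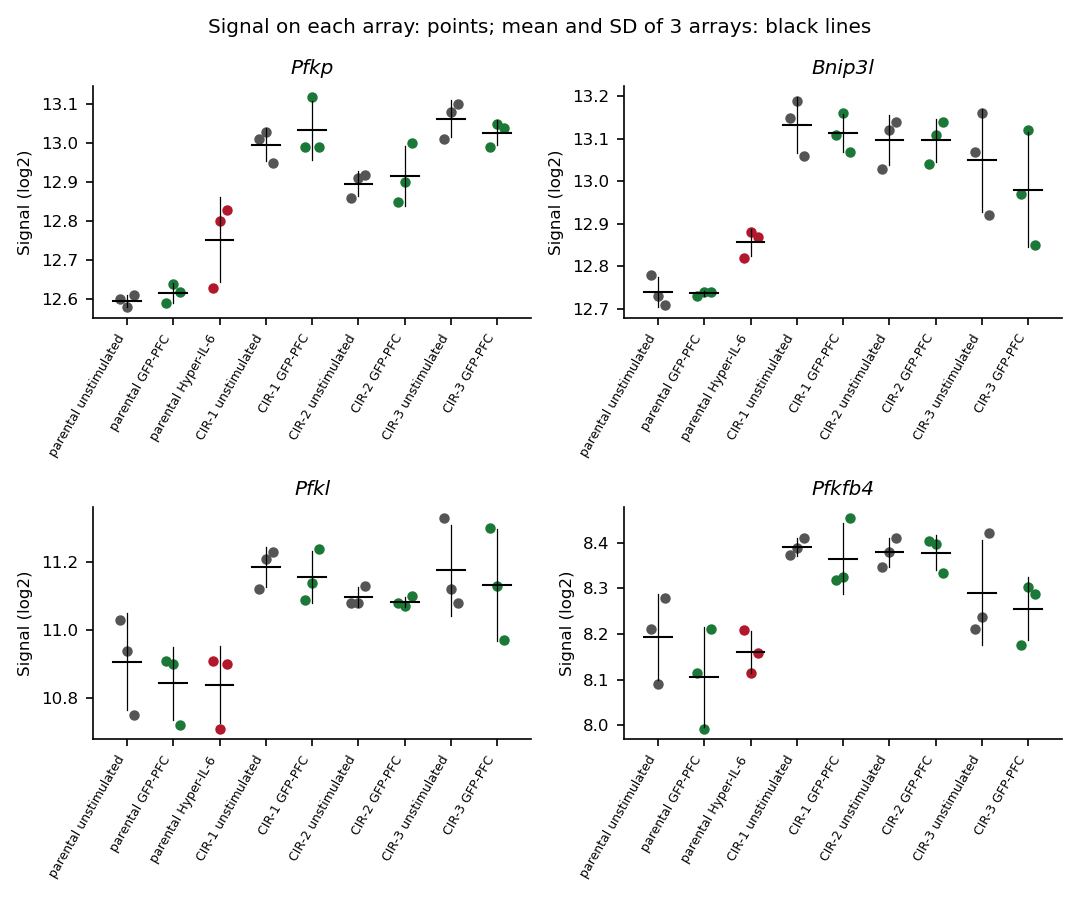
Log2 signal of Pfkp, Bnip3l, Pfkl and Pfkfb4 on each array (points, 3 per group; grey unstimulated, green GFP-PFC, red Hyper-IL-6), with the mean and SD of each group in black. The 18 CIR arrays of Pfkp (12.85 to 13.12) and of Bnip3l (12.85 to 13.19) lie above the parental arrays without Hyper-IL-6, whereas Pfkl and Pfkfb4 of CIR-3 overlap them.

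Bnip3l, a mitochondrial receptor for mitophagy, ran from 12.71 to 12.78 (median 12.73) on the parental arrays and from 12.85 to 13.19 (median 13.11) on the CIR arrays, without overlap. Parental arrays given Hyper-IL-6 read 12.82, 12.88 and 12.87, the first below all CIR arrays and the others at the lower end of their range. CIR-1 differed by 0.38 (SE 0.047, 1.31-fold, adjusted p = 4.48e-06), CIR-2 by 0.36 (1.28-fold, adjusted p = 1.69e-05) and CIR-3 by 0.28 (1.21-fold, adjusted p = 0.000431). A second Bnip3l probe set gave 0.41, 0.37 and 0.28. On GFP-PFC arrays alone the CIR-3 difference missed the threshold (adjusted p = 0.0782).

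Its paralog Bnip3, a classic HIF target, was called in CIR-3 (difference 0.49, SE 0.12, adjusted p = 0.0189). That value was uneven across arrays: CIR-3 read 10.76, 10.13 and 9.95 unstimulated and 10.72, 10.05 and 9.88 with GFP-PFC, and the parental arrays read 9.60 to 9.94. The CIR-3 minus parental difference was 0.84 on the arrays numbered 1 and 2, 0.37 on those numbered 3 and 4 and 0.26 on those numbered 5 and 6. The call was lost in 6 of 25 alternatives, among them without CIR-3 unstimulated array 1 (0.37, adjusted p = 0.0632), CIR-3 GFP-PFC array 2 (0.36, adjusted p = 0.0569) or parental unstimulated array 5 (0.45, adjusted p = 0.0594). Without all arrays numbered 1 and 2 the difference was smaller, at 0.31 (adjusted p = 0.0160). That fit called a far larger share of all genes for CIR-3 than the main fit (closing section), so this pass may only follow that rise. A second Bnip3 probe set gave 0.32 (adjusted p = 0.0387).

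Among the other members, Hk3, a hexokinase found mainly in myeloid cells, was called higher in CIR-3 (0.23, SE 0.058, adjusted p = 0.0185) with overlapping arrays. Car9 was the 1 member called lower, in CIR-3 (-0.21, SE 0.060, adjusted p = 0.0458). Its differences in CIR-1 and CIR-2 were of like size (-0.19 and -0.19) and missed the threshold (adjusted p = 0.0725 and 0.0907), and the CIR-3 call was lost in 15 of 25 alternatives. Hif1a itself was called in no line, with differences of 0.20, 0.20 and 0.24 (SE 0.070, adjusted p = 0.125, 0.154 and 0.0507). It was higher than the parental array of the same number in 6 of 6 comparisons in each line, and with the number block it was called in all 3 (adjusted p = 0.00475, 0.00673 and 0.000975). The 3 lines share the 6 parental arrays, and the labels do not say that arrays of a number were matched. Hif1a also varied with that number within groups (below). The shares of all genes at 6 of 6, or called with the block, are not given here, so these values are a description.

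**Figure D4:**
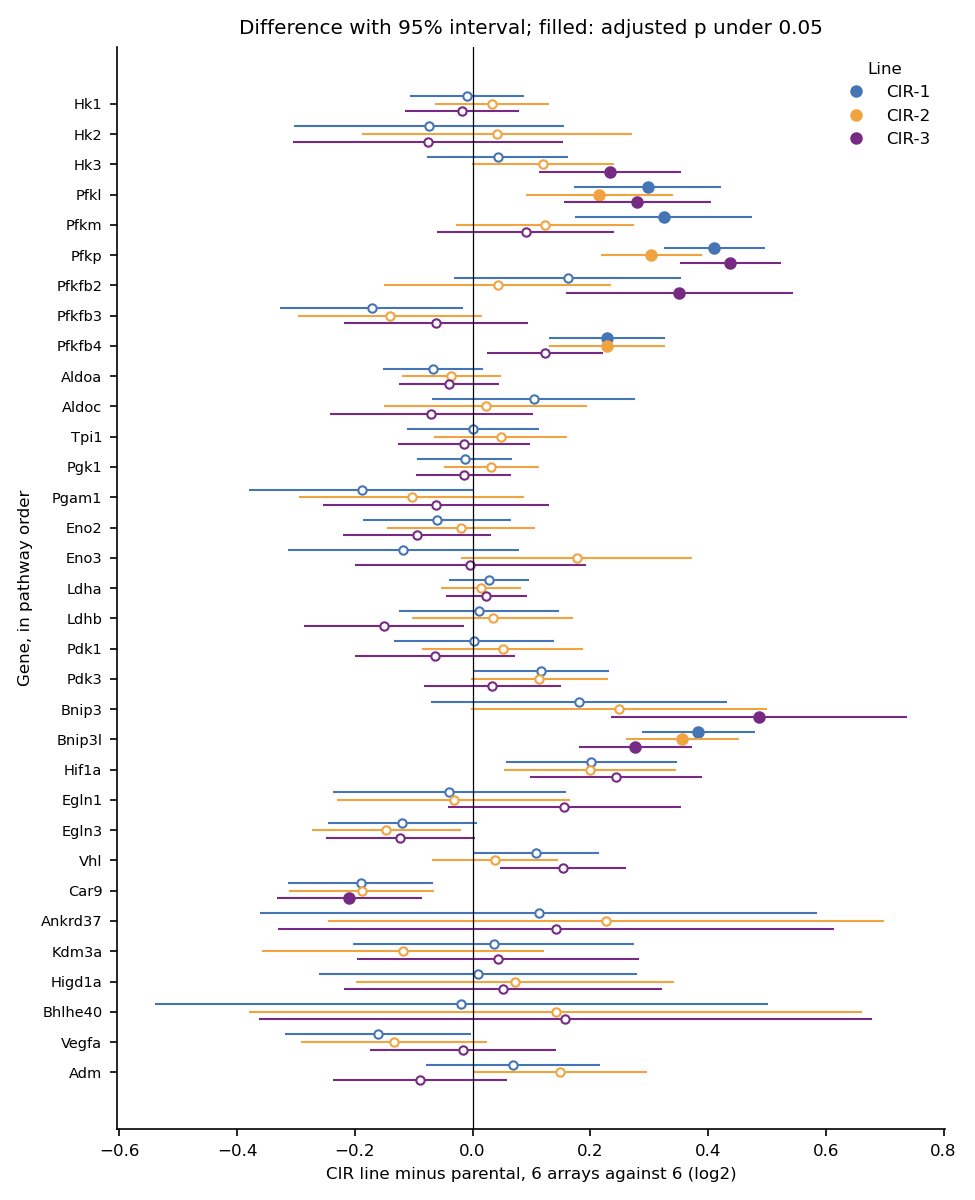
Differences of the 3 CIR lines from parental (log2, mean of both conditions, 6 arrays against 6) with 95% intervals for the 33 measured genes; filled points have an adjusted p under 0.05. Filled points gather at Pfkl, Pfkp, Pfkfb4 and Bnip3l, and the intervals of Ankrd37 and Bhlhe40 are the widest.

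An F-test over the 4 lines called 6 members (7.42% of all genes): Pfkp, Bnip3l, Pfkfb4, Pfkl, Pfkm and Hk3. Hk3 lost that call in 19 of 36 alternatives. With the number block the test called 12 members and 13.5% of all genes. Between CIR lines, 0 members were called in any of the 3 limma comparisons (1.45%, 2.80% and 2.33% of all genes called), with 3, 8 and 6 members at an unadjusted p under 0.05 for CIR-2 against CIR-1, CIR-3 against CIR-1 and CIR-3 against CIR-2. With the number block, 2, 3 and 4 members were called, where the share of all genes rose to 2.77%, 5.13% and 5.20%. Among them were Eno3, a muscle-type enolase, higher in CIR-2 than in CIR-1 (0.29, adjusted p = 0.0102), and Egln1 higher in CIR-3 than in CIR-1 (0.20, adjusted p = 0.0112).

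Markers of other blood lineages moved with the line as well. The mean signal of 9 mast cell and basophil markers was 7.81 to 7.92 in the 3 parental groups and 7.26 to 7.39 in the 6 CIR groups, with Fcer1a, which encodes a subunit of the IgE receptor, at 8.66 to 9.37 in parental groups and 4.87 to 5.16 in the CIR groups, under the lower-quartile signal of 6.28. The mast cell proteases Cpa3 and Cma1 lay under that signal in all 9 groups. Most of the fall in that mean came from Fcer1a. The median of the list was 6.87 to 7.04 in parental and 6.65 to 6.83 in CIR groups. Not all markers of that list fell. Gata2, also a stem cell and progenitor factor, had group means of 13.03 to 13.10 in parental and 13.32 to 13.46 in CIR groups. Ms4a2, another chain of the IgE receptor, read 7.8 in parental and 8.1 to 8.4 in CIR groups unstimulated, and 8.43 against 8.57 to 9.03 with GFP-PFC. Against parental, 2 of the 9 markers were called lower in each CIR line, and 1, 1 and 2 were called higher in CIR-1, CIR-2 and CIR-3. The mean of 6 erythroid and megakaryocyte markers was 8.52 to 8.58 in parental groups and 8.65 to 8.86 in CIR groups, and Klf1, an erythroid transcription factor, had group means of 8.97 to 9.11 and 9.26 to 9.79. Of those 6 markers, 4, 4 and 1 were called higher in CIR-1, CIR-2 and CIR-3, and Pf4, which defines megakaryocytes and platelets, lay under the lower-quartile signal in all 9 groups. Of 7 myeloid markers 3, 1 and 2 were called, of 15 pro-B markers 1, 1 and 2, and of 4 T cell markers 0 in each line, with 0 at an unadjusted p under 0.05 in limma. The myeloid marker Mpo moved both ways, with group means of 10.42 to 10.52 in parental, 8.87 to 8.91 in CIR-1 and CIR-2 and 11.40 to 11.43 in CIR-3. Lyz2, also on the myeloid list, read 7.3 to 7.4 in parental groups and 6.4 to 6.6 in CIR-3. Hyper-IL-6 called 0 markers of any list in limma (2 at an unadjusted p under 0.05), and GFP-PFC called 1, on the mast cell list. Their part in the line differences of Pfkp, Bnip3l and the others was not tested.

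Other genes of the pathway were read from lists that were not part of the 33. After Hyper-IL-6, 1 of 15 further HIF pathway components rose, Cited2, which competes with HIF for its coactivators (0.53, SE 0.11, adjusted p = 0.0157). Limma called 0 of 10 genes for glucose entry and lactate export (3 at an unadjusted p under 0.05), 0 of 20 other glycolytic isozymes and regulators (0), 0 of 34 other HIF targets (1), 0 of 9 pentose phosphate genes (0) and 0 of 24 genes of the tricarboxylic acid cycle (1). With GFP-PFC, 1 of the 34 other HIF targets rose over the 4 lines: Plin2, a lipid droplet coat protein that is also induced by fatty acids (0.31, SE 0.062, adjusted p = 0.0211).

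Of the 15 HIF pathway components, Cited2 was higher in CIR-1 than in parental cells (0.44, SE 0.078, adjusted p = 0.000685) and lower in CIR-3 than in CIR-1 (-0.32, adjusted p = 0.0230). Hif3a, a HIF alpha subunit, was higher in CIR-2 (0.30, SE 0.083, adjusted p = 0.0458). Between lines, the other HIF targets moved in both directions. CIR-1 had 4 higher and 2 lower, CIR-2 had 1 and 2, and CIR-3 had 4 and 1. Flt1, a receptor for Vegfa, was higher by 0.69 (CIR-1), 1.50 (CIR-2) and 1.39 (CIR-3), and Trf, the iron carrier transferrin, was lower by a difference of -0.68, -0.73 and -0.76 (adjusted p from 2.42e-12 to 2.14e-06). Ndrg1, a hypoxia-induced stress gene, was higher in CIR-1 (0.52, adjusted p = 4.09e-05) and CIR-3 (0.41, adjusted p = 0.00107) and not called in CIR-2, which lay below CIR-1 in the direct test (-0.47, adjusted p = 0.00052). Ero1a, which forms disulfide bonds in the endoplasmic reticulum, was lower in CIR-1 (-0.45) and CIR-2 (-0.40). Of the 20 other isozymes and regulators, 4, 2 and 0 were called in CIR-1, CIR-2 and CIR-3. Ldhc, the testis-type lactate dehydrogenase, was higher in CIR-1 (0.43) and CIR-2 (0.48), and CIR-3 lay below CIR-1 (-0.28, adjusted p = 0.00366) and CIR-2 (-0.33). Of the pentose phosphate genes 1 was called, H6pd in CIR-3 (0.23), which was also above CIR-1 (0.25) and CIR-2 (0.29). Of the tricarboxylic acid cycle list 1 was called against parental, Idh3g in CIR-1 (-0.12), and Idh1, the cytosolic isocitrate dehydrogenase, was higher in CIR-3 than in CIR-1 (0.53, SE 0.11, adjusted p = 0.00295). None of the 10 glucose and lactate transport genes was called in any CIR line by limma (1, 0 and 0 at an unadjusted p under 0.05).

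Within groups, several members varied with the number in the array's label. Ankrd37, an ankyrin-repeat gene known as a HIF target, read 9.59, 8.63 and 8.89 on parental unstimulated arrays 1, 3 and 5, and 9.34, 8.73 and 8.94 on parental GFP-PFC arrays 2, 4 and 6. In CIR-1 the same order of arrays gave 9.93, 8.77 and 8.97 unstimulated and 9.40, 8.63 and 9.09 with GFP-PFC. In each of the 8 groups without Hyper-IL-6 the array numbered 1 or 2 was the highest, by 0.75 ± 0.21 over the other two (mean ± SD, 8 groups). The labels do not say what the numbers stand for.

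Of the 33 members, 6 were highest on the array numbered 1 or 2 in all 8 groups, or 18.2% of members against 7.80% of all genes. Besides Ankrd37 these were Higd1a, a mitochondrial HIF target (0.41 ± 0.19), Kdm3a, a histone demethylase (0.37 ± 0.12), the hydroxylase Egln1 (0.32 ± 0.061), Pfkfb2 (0.28 ± 0.12) and Hif1a (0.22 ± 0.046). A second Higd1a probe set gave 0.34 ± 0.15, also with 8 of 8. Another 4 were lowest on that array in all 8 groups, or 12.1% of members against 7.13% of all genes: Bhlhe40 (-0.59 ± 0.21), Pgam1, the phosphoglycerate mutase (-0.27 ± 0.15), Pfkm (-0.17 ± 0.071) and Aldoa (-0.075 ± 0.046). Hk2 was lowest there in 7 of 8 groups (-0.29 ± 0.13). These values are a description and were not tested.

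In the Hyper-IL-6 group the higher genes were higher on array 2 by less than in the other groups, or not at all. Array 2 of that group differed from arrays 4 and 6 by 0.15 for Ankrd37, -0.067 for Higd1a, -0.17 for Kdm3a and 0.036 for Egln1. The corresponding values were -0.032 for Pfkfb2 and -0.10 for Hif1a. Of the genes low on that number, Bhlhe40 (-0.63) and Hk2 (-0.48) were low on array 2 again, and Pgam1 (0.14), Aldoa (0.10) and Pfkm (0.041) were not. Without the arrays numbered 1 and 2 the Hyper-IL-6 comparison called 6 members, or 18.2%, where 18.4% of all genes were called, so the larger count is no more than that share: Hk2 (1.06), Bhlhe40 (1.57), Vegfa (0.62) and Pfkp (0.22) were higher, and Aldoc (-0.27) and Pgam1 (-0.18) lower.

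**Figure D5:**
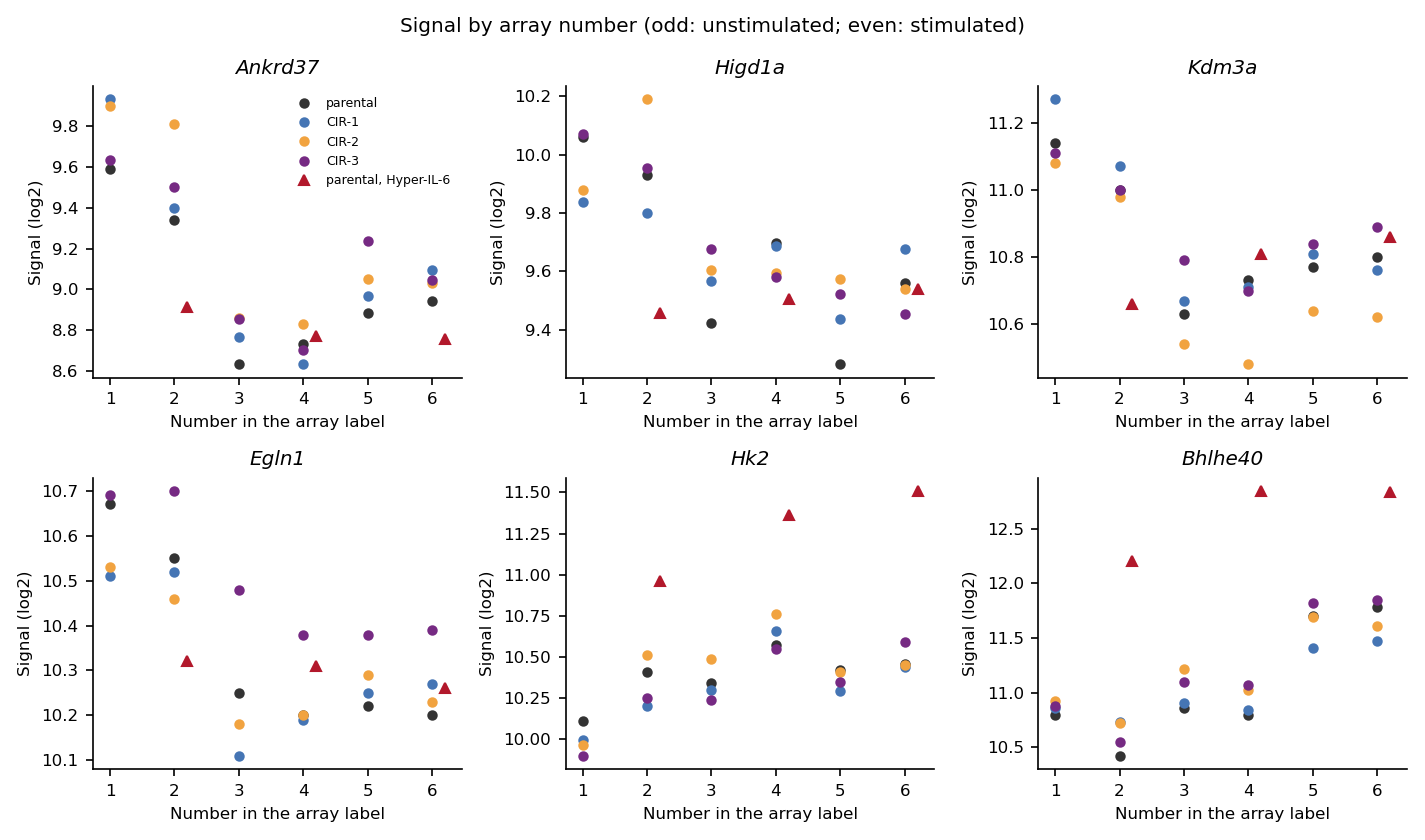
Log2 signal of Ankrd37, Higd1a, Kdm3a, Egln1, Hk2 and Bhlhe40 on each array, by the number in the array's label (odd numbers unstimulated, even numbers stimulated; circles coloured by line, triangles for Hyper-IL-6). Arrays numbered 1 and 2 are high for the first 4 genes and low for Bhlhe40 in each line without Hyper-IL-6. For those 4 genes the Hyper-IL-6 array numbered 2 (8.91 for Ankrd37) lies below them.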

How the data were processed

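RNA of 27 samples was measured on Affymetrix mouse gene arrays. The authors deposited normalized signals per probe set, made with Affymetrix Expression Console per the submitters' processing notes; its version and the normalization method are not given in the sources used here. The deposited values (2.969 to 14.86) were taken as log2 from their range. The RNA had passed a quality check per the labels' protocols. Of 35556 probe sets, 21789 carried 1 symbol, 1621 several and 12146 none in the platform annotation; 23 symbols were updated, and 19920 genes were kept, each by its probe set with the highest mean signal. Exon-level values of the same arrays served as an alternative. No filter on dim genes was applied.

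A model with 9 group means was fitted to all 27 arrays with limma 3.58.1 (R 4.3.3); p-values were adjusted over the 19920 genes (Benjamini-Hochberg), and a gene passed under 0.05. The procedure was checked on simulated data. Named in full are members called in a comparison, the 3 with the smallest p where fewer were called, and those with the widest range of group means; of other lists, up to 4 called genes. The members and lists were chosen with earlier results of these data known.

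Array numbers were tested as pairs: deviations from the group mean correlated at 0.283 to 0.633 in the 12 consecutive pairs (1 with 2, 3 with 4, 5 with 6), at 0.136 to 0.763 between unstimulated arrays of the same number and at 0.211 to 0.615 between GFP-PFC arrays of the same number, all above 0.1. Hyper-IL-6 arrays correlated with the others of their number at -0.463 to 0.060. The fit with these number pairs as a block is given where it changes a call. The number of arrays limits the precision. Promoter windows came from RefSeq (GRCm38.p6). Other tools were the R package data.table (version 1.17.8), Python 3.11.15, pandas 2.3.3, numpy 2.4.6 and matplotlib 3.10.9.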

Additional observations from a re-analysis of the deposited data

How the results depend on the processing

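None of the 55 results for single members reversed its sign under any alternative run. The F-tests among them have no sign and could not reverse. Pfkp was called in each CIR line under all 25 alternatives, and Bnip3l under all in CIR-1 and CIR-2 and in 24 in CIR-3. Counts of members called moved more, and so did the share of all genes called. A count given below without that share may only follow it, and is not a result about the members. With the number pairs as a replicate block they were 2 (main 0) for the mean GFP-PFC response, 2, 3 and 4 (main 0) for CIR-2 against CIR-1, CIR-3 against CIR-1 and CIR-3 against CIR-2, and 12 (main 6) for the F-test of lines; leaving the Hyper-IL-6 arrays out of that block, an alternative chosen after seeing the data, gave 2, 2, 4, 5 and 13, and 8 (main 5) for CIR-1 against parental. With array weights, where 17.4%, 9.67%, 5.38%, 21.4% and 22.2% of all genes were called for Hyper-IL-6, Hyper-IL-6 against GFP-PFC, GFP-PFC, CIR-3 and the F-test (main 0.773%, 0.507%, 0.221%, 4.20% and 7.42%), the counts were 6 for Hyper-IL-6 against unstimulated (main 3), 6 for Hyper-IL-6 against GFP-PFC (main 2), 2 for GFP-PFC, 8, 9 and 13 against parental for the CIR lines in order (main 5, 4 and 7), 1, 4 and 5 between CIR lines in the same order and 16 for the F-test. Without the arrays numbered 1 and 2, where 18.4%, 4.74% and 20.9% of all genes were called for Hyper-IL-6, GFP-PFC and CIR-3, they were 6 for Hyper-IL-6, 1 against GFP-PFC, 2 for GFP-PFC, 7 and 12 for CIR-2 and CIR-3, 3 and 4 for CIR-3 against CIR-1 and CIR-2, and 11 for the F-test. The compared groups alone gave 0 for Hyper-IL-6, 1 against GFP-PFC and 2 for CIR-3. Each condition alone (3 arrays a group) gave 2 for each CIR line and 2 for the F-test, except 3 for CIR-2 on GFP-PFC arrays. Exon-level values gave 2 for CIR-2 against parental and 1 for CIR-3 against CIR-1, as did quantile normalization and median centring (1 each).

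Leaving out 1 array at a time, the counts ran from 1 to 3 for Hyper-IL-6, 0 to 2 against GFP-PFC, 0 to 1 for the mean GFP-PFC response (1 without CIR-3 unstimulated array 5), 0 to 0 in each line, against parental 5 to 6 (CIR-1), 3 to 5 (CIR-2) and 3 to 8 (CIR-3), 0 to 0, 0 to 1 and 0 to 1 between CIR lines, 4 to 8 for the F-test of lines and 0 to 0 for that of the response. The share of all genes called in each of these fits is not given here, so these counts are not a result about the members. Causes of these moves were not tested. With 3 arrays a group, differences such as that of Pfkfb3 after Hyper-IL-6 (0.27, SE 0.11) did not pass.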
